A study of Mus musculus with 15 samples.

Results

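The genes described here encode enzymes that cut the extracellular matrix or the surface of cells, together with their natural inhibitors. They are the matrix metalloproteinases (MMPs), the secreted ADAMTS proteases, the membrane-anchored ADAM proteases and the tissue inhibitors of metalloproteinases (TIMPs). Members were all genes whose single symbol in the platform annotation names a numbered Mmp, Adamts or Adam gene or Timp1 to Timp4. There were 54 of them among 12393 genes on the array: 18 MMP, 7 ADAMTS, 25 ADAM and 4 TIMP genes. Where a gene had several probe sets, the one with the highest mean signal on the 15 arrays stood for it, and no measured difference entered the choice.

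MMPs and ADAMTS proteases carry a zinc ion in their active site and are made as inactive precursors, which other proteases or furin-like convertases open. MMPs degrade collagens, laminins and other matrix proteins, ADAMTS proteases cut proteoglycans and procollagens, and several ADAMs release growth factors and receptors from the cell surface. TIMPs bind the active site and block it. In the mammary gland these enzymes take part in duct branching, in the shaping of the alveoli and in the breakdown of the gland at involution.

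The material was mammary epithelial cells purified from digested glands of female C57BL/6 mice. The drug groups were arrays labelled pregnant (day 21) after intraperitoneal AzaC (5-azacytidine, an inhibitor of DNA methylation, n = 3) or VPA (valproic acid, an inhibitor of histone deacetylases, n = 3), and arrays labelled virgin (9 weeks) after AzaC (n = 3) or VPA (n = 2). The controls had received PBS, with 2 arrays labelled pregnant and 2 labelled virgin. Whether the arrays of a group stand for different animals is not stated in the labels. The p-values therefore refer to the scatter among these arrays, which may be technical, and groups of 2 or 3 arrays limit the precision.

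The cell type was checked against epithelial markers, and milk genes were read beside the stage labels. The mean signal of 5 milk secretion genes (Csn2, Csn3, Wap, Lalba and Csn1s1) lay between 13.9 and 14.25 on the arrays labelled pregnant and between 13.89 and 14.17 on those labelled virgin, and these ranges overlapped. They lie next to the highest value in the whole table, where a difference could hardly show, so they do not check the stage labels. The 5 luminal markers were high everywhere, with means between 11.06 and 12.91. Markers of other cells were also read: 8 fibroblast markers averaged 8.67 to 10.65 and 6 macrophage markers 7.63 to 9.25, while 8 neutrophil markers averaged 4.3 to 4.85. In such bulk samples, fewer cells of a type and less RNA per cell cannot be told apart. All values below are the authors' deposited signals on a scale taken as log2, so that a difference of 1 is a doubling, and values of different probe sets are not set against each other. Of the 54 genes, 37 had a mean under 7.04, the 40th percentile of all genes, and 6 were listed at 0 on at least 1 array.

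With AzaC in arrays labelled pregnant, Adamts5 fell strongly and 4 dim genes changed less. Mmp11, Adam1a and Mmp9 rose, and Adamts5 and Mmp10 fell, so that 5 of 54 genes passed the threshold. Over all genes 7.57% passed, 3.76% higher and 3.81% lower, and the members' count is near that background. With VPA, Adam1a and Mmp9 rose and Adamts5 fell. These were 3 of 54 genes, against a background of 5.98%, of which 3.64% were higher and 2.34% lower. At an unadjusted p under 0.05 there were 11 members with each drug, against 26.2% of all genes with AzaC and 24.9% with VPA. The median change of the members was 0.14 with AzaC and 0.17 with VPA, against 0.04 and 0.06 for all genes. The groups did not overlap for 22 members with AzaC and for 23 with VPA, where 44.4% and 43.3% of all genes did not overlap. The threshold was an adjusted p of 0.05 in limma, with Benjamini-Hochberg adjustment over all genes. Marker levels differed between these groups too. The mean of the luminal markers was 12.30 to 12.82 with AzaC and 12.48 to 12.91 with VPA, against 11.39 to 11.41 with PBS, and that of 6 endothelial markers was 7.93 to 8.77 and 7.95 to 8.69, against 6.94 to 7.65. Their part in the results was not tested. AzaC and VPA were compared with the same 2 PBS arrays, so their results are not independent. None of these calls held when either pregnant PBS array was left out, where 0 of the 54 genes passed with each drug. The AzaC calls also ended without pregnant AzaC replicate 1 or replicate 3 (0 members), and without replicate 2 Adamts5, Mmp10 and Mmp11 passed. Over all genes 177, 1335 and 138 passed without replicates 1, 2 and 3, against 938 with all arrays. Without pregnant VPA replicate 1 only Adamts5 passed with VPA, where 214 of all genes passed, against 741. When only the arrays compared were fitted, 0 members passed with AzaC, as did 0 of all genes. With VPA 1 member, Mmp10, and 364 of all genes passed there.

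**Figure D1:**
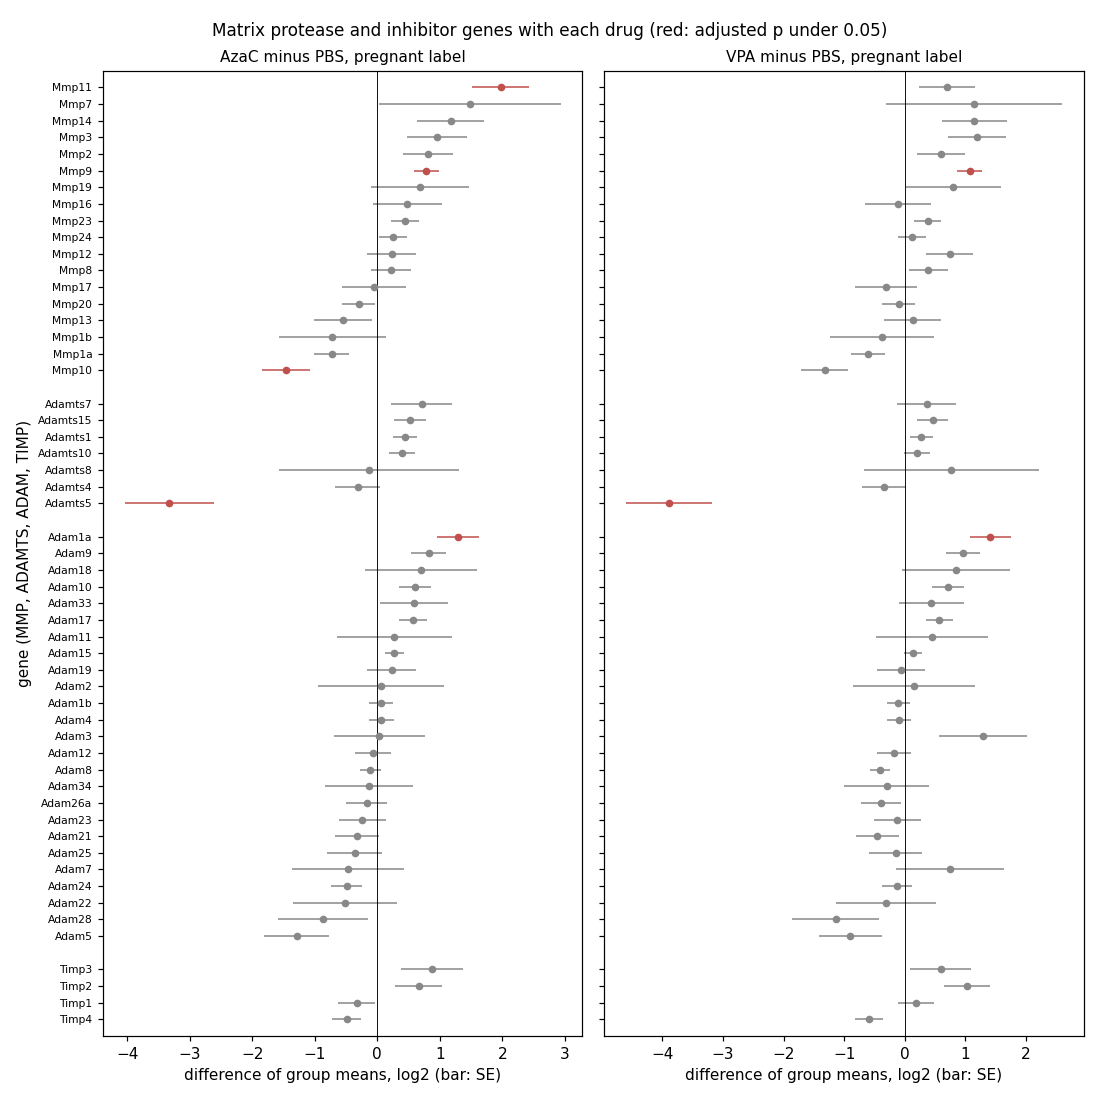
Difference of group means for the 54 genes in arrays labelled pregnant, AzaC minus PBS on the left and VPA minus PBS on the right, on the log2 scale with standard errors, in the blocks MMP, ADAMTS, ADAM and TIMP. Red points passed an adjusted p of 0.05, 5 with AzaC and 3 with VPA, and Adamts5 lies farthest from 0 at -3.33 and -3.89.

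Adamts5 encodes aggrecanase-2, which cuts the large proteoglycans aggrecan and versican. Its signal was 8.07, 10.24 and 7.94 on the pregnant AzaC arrays and 9.11, 8.43 and 7.04 on the pregnant VPA arrays, against 12.12 and 12.04 on the pregnant PBS arrays. All 6 drug arrays lay well below both controls, with a spread among themselves of several units on this scale. Adamts5 fell by 3.33 ± 0.71 (SE) with AzaC (limma adjusted p = 0.0230) and by 3.89 ± 0.71 (SE) with VPA (limma adjusted p = 0.0180). These are signals of 0.0994 and 0.0676 times the control. Only 5 of 12393 genes had a larger fitted fall with AzaC and 3 with VPA. A second probe set for the gene read 8.51, 9.22 and 7.78 with AzaC and 8.54, 8.0 and 7.83 with VPA, against 10.81 and 11.49 with PBS. When all probe sets were fitted together, a setting chosen after seeing the data, this second one fell by 2.65 ± 0.50 (SE, limma adjusted p = 0.0208) with AzaC and by 3.03 ± 0.50 (SE, limma adjusted p = 0.0168) with VPA, so both probe sets gave the same direction.

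In arrays labelled virgin Adamts5 read 11.25, 10.05 and 9.96 with AzaC and 11.20 and 11.43 with VPA, against 10.76 and 11.17 with PBS. The AzaC arrays overlapped the controls (change -0.54 ± 0.71 SE, limma adjusted p = 0.886), and the VPA change was 0.35 ± 0.78 (SE, limma adjusted p = 0.953). The difference between the VPA changes at the 2 stage labels, pregnant minus virgin, was -4.24 ± 1.06 (SE, limma adjusted p = 0.0833), and that between the AzaC changes was -2.79 ± 1.01 (SE, limma adjusted p = 0.280). Neither passed as fitted, so a dependence on the stage label was not shown. The VPA difference passed without genes under the 40th percentile (adjusted p = 0.0386) and with trend and robust settings (adjusted p = 0.0481). Directly compared under VPA, pregnant arrays were 3.12 ± 0.71 (SE) lower than virgin arrays (limma adjusted p = 0.0318). Under AzaC the difference was -1.67 ± 0.64 (SE, limma adjusted p = 0.2) with overlapping groups, and under PBS it was 1.12 ± 0.78 (SE, limma adjusted p = 1), the opposite sign.

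None of the 6 other ADAMTS genes passed with either drug in arrays labelled pregnant. Adamts1, another proteoglycan-cutting enzyme and the direct neighbour of Adamts5 on chromosome 16 in the RefSeq annotation, read 8.63, 8.51 and 8.54 with AzaC and 8.72, 8.27 and 8.21 with VPA, against 8.17 and 8.08 with PBS in arrays labelled pregnant. Every drug array was above both controls, but the changes of 0.44 ± 0.19 (SE, limma adjusted p = 0.177) and 0.27 ± 0.19 (SE, limma adjusted p = 0.411) did not pass. Such separation in either direction was common, at 44.4% of all genes with AzaC and 43.3% with VPA. Adamts15, which also cuts proteoglycans, passed in 1 comparison. It read 7.51, 7.09 and 7.06 on pregnant VPA arrays, against 6.30 and 6.19 on virgin VPA arrays, and was 0.98 ± 0.25 (SE) higher there (limma adjusted p = 0.0432). The changes of Adamts4, Adamts7, Adamts8, Adamts10 and Adamts15 in arrays labelled pregnant lay between -0.34 and 0.77. Adamts7 was listed at 0 on 6 arrays and Adamts8 on 3.

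**Figure D2:**
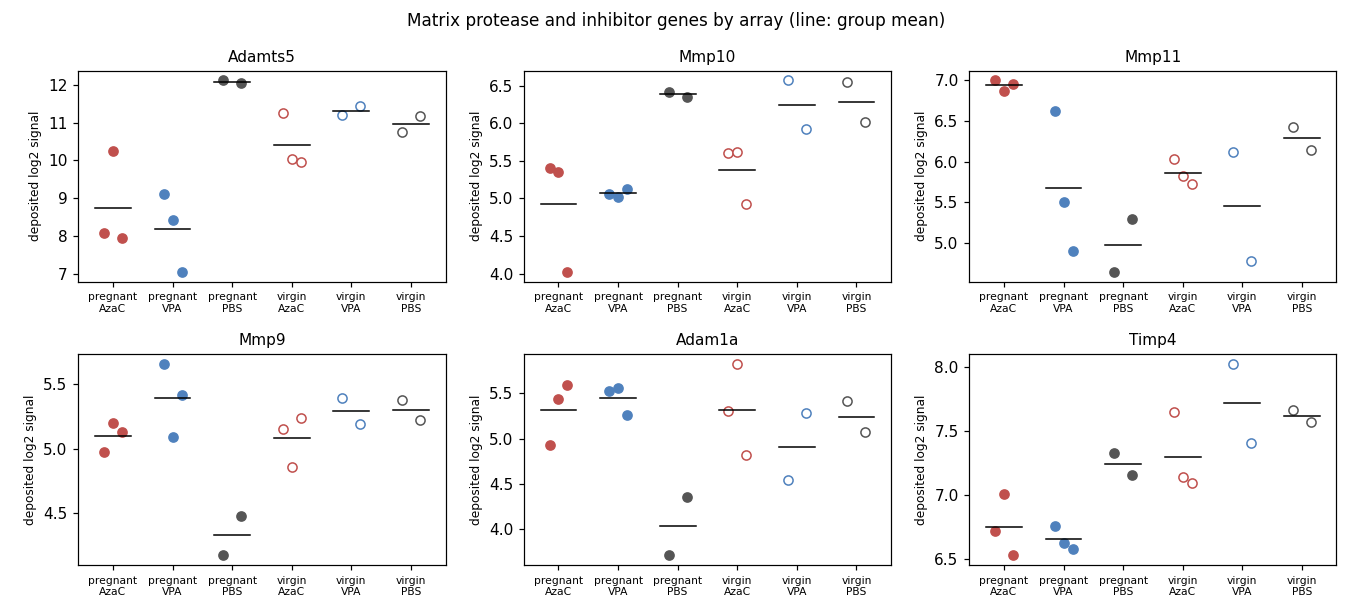
Deposited log2 signal of 6 genes on each array, with arrays labelled pregnant as filled and those labelled virgin as open circles, AzaC in red, VPA in blue and PBS in grey, and a line at each group mean. Adamts5 lies between 7.04 and 10.24 on the 6 pregnant drug arrays and above 12 on both pregnant PBS arrays. For Mmp9 and Adam1a the pregnant PBS arrays are the low ones, while drug and virgin arrays share one range.

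Among the MMPs, Mmp11 (stromelysin-3, known from the stroma around remodelling epithelium) rose with AzaC. It read 7.0, 6.87 and 6.95 on pregnant AzaC arrays, against 4.64 and 5.30 on pregnant PBS arrays, a change of 1.97 ± 0.46 (SE, limma adjusted p = 0.0299), or 3.92-fold. With VPA it read 6.62, 5.50 and 4.90, which reached into the range of the controls (0.70 ± 0.46 SE, limma adjusted p = 0.383). The difference between the drugs, AzaC minus VPA, was 1.27 ± 0.42 (SE) and did not pass (limma adjusted p = 1). In arrays labelled virgin Mmp11 read 6.03, 5.82 and 5.73 with AzaC and 6.12 and 4.78 with VPA, against 6.43 and 6.14 with PBS. The virgin controls therefore lay close to the pregnant AzaC arrays, and the difference between pregnant and virgin PBS was -1.32 ± 0.51 (SE, limma adjusted p = 1).

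Mmp9, the gelatinase that leukocytes also carry, showed a similar arrangement. It read 4.97, 5.20 and 5.13 with AzaC and 5.66, 5.09 and 5.42 with VPA, against 4.17 and 4.48 with PBS in arrays labelled pregnant. It rose by 0.78 ± 0.20 (SE, limma adjusted p = 0.0393) with AzaC and by 1.07 ± 0.20 (SE, limma adjusted p = 0.0190) with VPA. When signals below 5 were raised to 5, the values for Mmp9 were 0.11 (adjusted p = 0.76) with AzaC and 0.39 (adjusted p = 0.14) with VPA, and with trend and robust settings the AzaC call ended (adjusted p = 0.0834). In arrays labelled virgin it read 5.15, 4.86 and 5.24 with AzaC and 5.39 and 5.19 with VPA, against 5.38 and 5.22 with PBS. Only the 2 pregnant PBS arrays stood below 4.86, and they differed from the virgin PBS arrays by -0.97 ± 0.22 (SE, limma adjusted p = 0.639). A second, dimmer Mmp9 probe set showed no such pattern, at -0.23 ± 1.19 (SE) with AzaC and -0.08 ± 1.19 (SE) with VPA. The 8 neutrophil markers averaged 4.69 to 4.85 with AzaC and 4.33 to 4.73 with VPA, against 4.45 to 4.78 with PBS in arrays labelled pregnant, and 0 of them passed with either drug, with 1 of the 8 listed at 0 on some array in each group. The 6 macrophage markers averaged 8.71 to 9.04 and 8.87 to 9.25, against 8.04 to 8.36 with PBS, with 0 passing. Their part in the Mmp9 result was not tested.

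Mmp2 (gelatinase A), Mmp14 (the membrane-type enzyme that activates it) and Mmp3 (stromelysin-1) were read at brighter probe sets, and none of them passed. Mmp3 read 8.24, 8.35 and 8.57 with AzaC and 8.88, 8.42 and 8.53 with VPA, against 7.34 and 7.51 with PBS in arrays labelled pregnant. All drug arrays lay above both controls, at changes of 0.96 ± 0.48 (SE, limma adjusted p = 0.233) and 1.19 ± 0.48 (SE, limma adjusted p = 0.157). Over all genes, 44.4% with AzaC and 43.3% with VPA did not overlap these controls in either direction. Mmp14 read 10.64, 9.28 and 10.67 with AzaC and 10.05, 9.81 and 10.68 with VPA, against 8.94 and 9.12. It also did not overlap the controls, with changes of 1.17 ± 0.54 (SE, limma adjusted p = 0.194) and 1.15 ± 0.54 (SE, limma adjusted p = 0.211). A second, dimmer Mmp14 probe set read 6.66, 7.31 and 7.93 with AzaC and 8.04, 6.93 and 5.76 with VPA, against 6.18 and 5.5. There the VPA arrays overlapped the controls and the AzaC arrays did not. Mmp2 changed by 0.81 ± 0.40 (SE, limma adjusted p = 0.231) with AzaC and by 0.60 ± 0.40 (SE, limma adjusted p = 0.390) with VPA. In the fit, 1 estimate of spread per gene served all groups. Virgin AzaC replicate 1 read 6.52 for Mmp3 and 7.89 for Mmp14, against 8.57 and 8.03 for Mmp3 and 9.62 and 9.62 for Mmp14 on replicates 2 and 3. Fibroblast markers, which stand for a main source of Mmp2 in tissue, averaged 9.58 to 10.34 with AzaC and 9.84 to 10.65 with VPA, against 9.16 to 9.37 with PBS in arrays labelled pregnant. Of these 8 markers 0 passed with AzaC and 1 (Dcn) with VPA, and their part in these values was not tested.

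Mmp10 (stromelysin-2), a close relative of Mmp3, was lower with both drugs, and passed with AzaC. It read 5.40, 5.35 and 4.02 with AzaC and 5.06, 5.02 and 5.12 with VPA, against 6.42 and 6.35 with PBS in arrays labelled pregnant. It fell by 1.46 ± 0.39 (SE, limma adjusted p = 0.0460) with AzaC, while the change of -1.32 ± 0.39 (SE) with VPA did not pass (limma adjusted p = 0.0703). In arrays labelled virgin Mmp10 read 5.6, 5.62 and 4.92 with AzaC and 6.57 and 5.92 with VPA, against 6.55 and 6.01 with PBS. The virgin AzaC arrays were below both controls too, without passing (-0.90 ± 0.39 SE, limma adjusted p = 0.714).

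Mmp3 and Mmp10 belong to a run of Mmp genes on chromosome 9, and 9 of the 54 genes lie in it. Their order in the RefSeq annotation is Mmp13, Mmp12, Mmp1b, Mmp3, Mmp1a, Mmp10, Mmp8, Mmp20 and Mmp7, with Mmp27 between Mmp8 and Mmp20. With AzaC in arrays labelled pregnant Mmp10 was the only one of the 9 to pass, and with VPA 0 of them passed. The collagenase genes Mmp1a and Mmp13 changed by -0.73 ± 0.28 and -0.55 ± 0.47 (SE) with AzaC and by -0.61 ± 0.28 and 0.13 ± 0.47 (SE) with VPA. The macrophage elastase Mmp12 changed by 0.23 ± 0.39 (SE) with AzaC and by 0.74 ± 0.39 (SE) with VPA. Mmp7 (matrilysin) was listed at 0 on 12 of 15 arrays and read 4.43, 3.42 and 3.88 on the others, so no fold is given. Mmp1a and Mmp1b are paralogs, and whether their probes tell them apart was not tested.

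RefSeq promoter windows of GRCm38.p6, from 250 bases before to 50 after a start site, were found for 30 of the 54 genes. Adamts5, Mmp9, Mmp2 and Adam9 were among the genes without a window. The AP-1 motif, searched as TGACTCA on both strands, was in 7 of 16 MMP windows (43.8%), against 4.73% of the windows of all measured genes. All 7 belong to the chromosome 9 run, and the motif began between 35 and 93 bases before the start. These related neighbours are not independent windows, and Mmp12 and Mmp7 each had another window without the motif. The letters TATAAA, searched on both strands, were in 9 of the 16 MMP windows (56.2%), against 9.81% of all measured genes' windows. These 9 windows also all belong to the chromosome 9 run. No TIMP window held either motif. CG dinucleotides, the target of DNA methylation, had a median of 2.5 per MMP window against 17 in the windows of all measured genes. The low counts belonged to the chromosome 9 run, whose related windows held 0 to 7. The windows of MMP genes elsewhere held 10 (Mmp14), 19 (Mmp11), 23 and 19 (Mmp23) and 44 (Mmp24). Those of Adam10 and Adam17 held 32 and 30. The 100 bases before the start of the 7 genes are shown because the motif is shared by neighbours with unlike values, Mmp10, which fell with AzaC, and Mmp3, which was above its controls without passing. Capitals mark the AP-1 motif on either strand.
Mmp13, chr9:7272414-7272513, plus strand: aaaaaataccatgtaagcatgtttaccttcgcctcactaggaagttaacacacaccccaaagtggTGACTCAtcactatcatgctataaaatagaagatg
Mmp12, chr9:7347274-7347373, plus strand: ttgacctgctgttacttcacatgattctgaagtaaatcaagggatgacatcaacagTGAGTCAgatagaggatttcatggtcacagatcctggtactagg
Mmp1b, chr9:7388027-7388126, minus strand: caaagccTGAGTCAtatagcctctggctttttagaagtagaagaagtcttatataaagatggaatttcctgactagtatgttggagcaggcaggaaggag
Mmp3, chr9:7445722-7445821, plus strand: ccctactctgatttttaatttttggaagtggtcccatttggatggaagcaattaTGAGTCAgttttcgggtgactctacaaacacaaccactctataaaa
Mmp1a, chr9:7464041-7464140, plus strand: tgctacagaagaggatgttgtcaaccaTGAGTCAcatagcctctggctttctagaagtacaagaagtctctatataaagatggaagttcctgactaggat
Mmp10, chr9:7502242-7502341, plus strand: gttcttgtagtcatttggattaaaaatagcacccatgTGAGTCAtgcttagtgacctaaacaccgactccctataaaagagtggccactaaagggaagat
Mmp7, chr9:7691990-7692089, plus strand: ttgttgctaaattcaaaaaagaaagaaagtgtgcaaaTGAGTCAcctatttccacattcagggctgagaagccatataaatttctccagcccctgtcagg
A match describes these letters and is not evidence of binding.

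**Figure D3:**
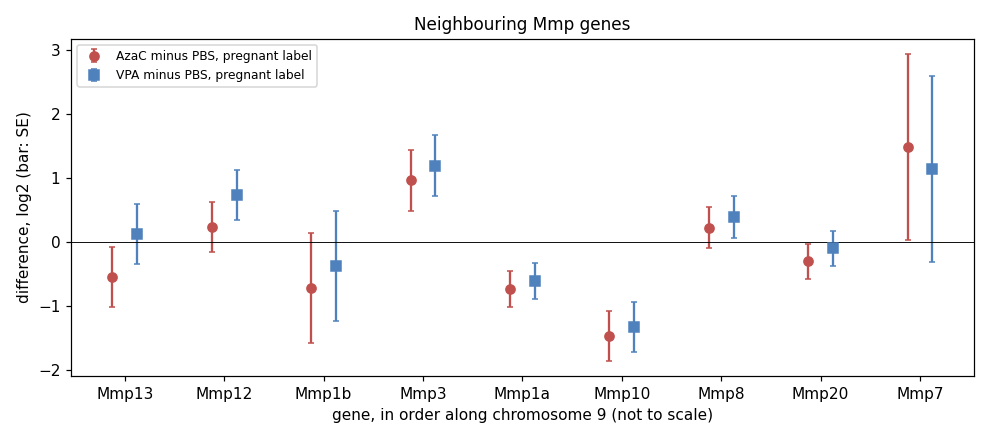
Differences from PBS on the log2 scale with standard errors for the 9 neighbouring Mmp genes in arrays labelled pregnant, with AzaC as red circles and VPA as blue squares, in chromosomal order. Mmp3 lies at 0.96 and 1.19 and Mmp10 at -1.46 and -1.32, and Mmp10 with AzaC is the only point past the threshold.

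Factors that bind AP-1 and ETS motifs were read as a list of 17 genes. This list and the other gene lists below were chosen with earlier results of these data known. A count above the background is therefore not independent evidence. With AzaC in arrays labelled pregnant 6 rose and 0 fell, where 3.76% of all genes were called higher, and the list median was 0.66 against 0.04 for all genes. Jun rose by 2.86 (limma adjusted p = 0.0364), Junb by 2.49 (limma adjusted p = 0.0203) and the stress-induced factor Atf3 by 2.47 (limma adjusted p = 0.0402). With VPA 3 of 17 rose, where 3.64% of all genes were called higher, namely Junb by 2.49 (limma adjusted p = 0.0246), Ets2 by 1.25 (limma adjusted p = 0.0452) and the epithelial factor Ehf by 1.21 (limma adjusted p = 0.0246). The median was 0.70, against 0.06 for all genes. Without either pregnant PBS array 0 of the 17 passed with each drug, in a setting chosen after seeing the data. With AzaC 1 passed without pregnant AzaC replicate 1 (Elk3) and 0 without replicate 3, and with VPA 1 (Ehf) passed without pregnant VPA replicate 1 or replicate 2 and 0 without replicate 3.

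ADAM genes fall into shedding enzymes of many tissues and genes known mainly from the testis. Adam10 and Adam17, the main sheddases of Notch and of EGF-like ligands, and Adam9 were read at bright probe sets. Adam9 read 10.91, 10.50 and 10.82 with AzaC and 11.15, 10.89 and 10.60 with VPA, against 9.93 and 9.92 with PBS in arrays labelled pregnant. All 6 drug arrays lay above both controls, at changes of 0.82 ± 0.28 (SE, limma adjusted p = 0.0914) and 0.96 ± 0.28 (SE, limma adjusted p = 0.0646), which did not pass. Groups were separate in either direction for 44.4% of all genes with AzaC and 43.3% with VPA. Adam9 passed with both drugs when genes under the 40th percentile were left out. Adam17 read 9.23, 8.99 and 9.61 with AzaC and 9.30, 9.25 and 9.28 with VPA, against 8.64 and 8.78. The change was 0.57 ± 0.22 (SE) with each drug, and it did not pass (limma adjusted p = 0.125 and 0.136). Its other 2 probe sets changed by 0.51 ± 0.26 and 0.82 ± 0.40 (SE) with AzaC and by 0.69 ± 0.26 and 0.36 ± 0.40 (SE) with VPA. Adam10 read 10.16, 9.64 and 10.09 with AzaC and 10.01, 9.77 and 10.45 with VPA, against 9.08 and 9.65. Its AzaC arrays touched the range of the controls, and the changes of 0.60 ± 0.26 (SE, limma adjusted p = 0.168) and 0.71 ± 0.26 (SE, limma adjusted p = 0.121) did not pass.

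**Figure D4:**
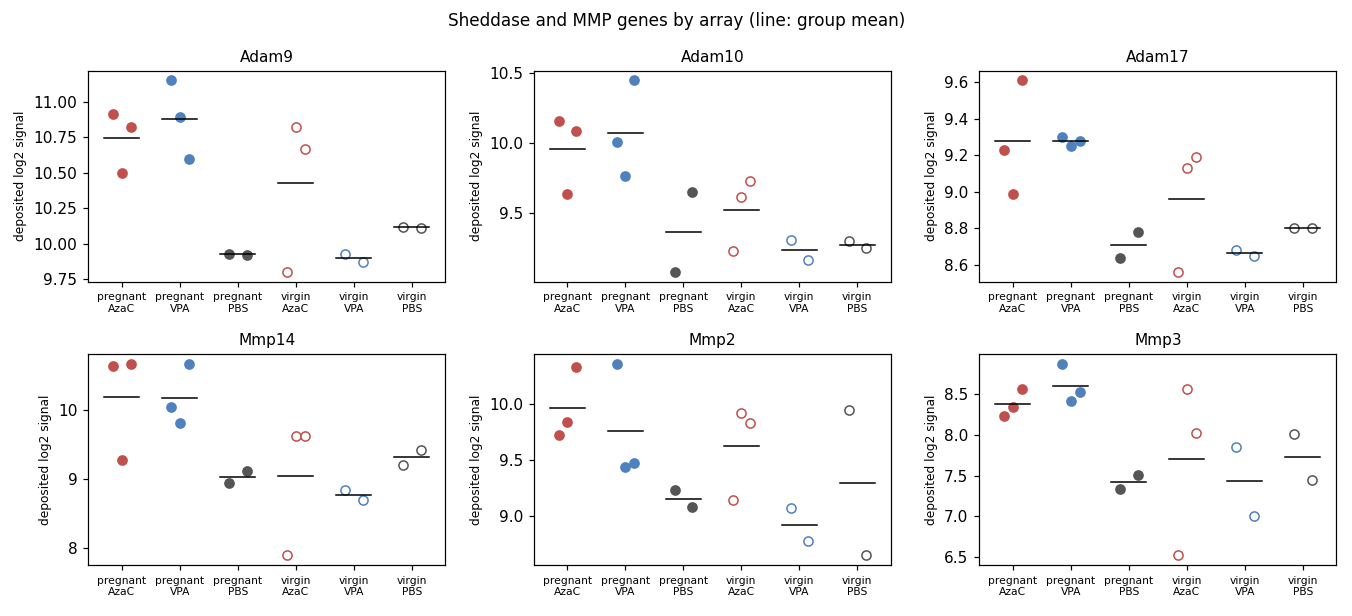
Deposited log2 signal of Adam9, Adam10, Adam17, Mmp14, Mmp2 and Mmp3 on each array, with pregnant labels as filled and virgin labels as open circles, AzaC in red, VPA in blue and PBS in grey, and lines at group means. Adam9, Adam17, Mmp14, Mmp2 and Mmp3 lie above both pregnant PBS arrays on all 6 pregnant drug arrays, and virgin AzaC replicate 1 lies below the other 2 arrays of its group in every panel. Of all genes, 44.4% with AzaC and 43.3% with VPA did not overlap the pregnant PBS arrays in either direction.

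Adam1a, one of the genes known mainly from the testis, was the only ADAM gene that passed. It read 4.93, 5.44 and 5.59 with AzaC and 5.53, 5.56 and 5.26 with VPA, against 3.71 and 4.36 with PBS in arrays labelled pregnant. It rose by 1.29 ± 0.34 (SE, limma adjusted p = 0.0417) and by 1.41 ± 0.34 (SE, limma adjusted p = 0.0360). As with Mmp9, the pregnant PBS arrays were low, and the virgin arrays read 5.31, 5.83 and 4.82 with AzaC and 4.54 and 5.28 with VPA, against 5.42 and 5.07 with PBS. With values under 5 set to 5 both calls ended (adjusted p = 0.444 and 0.304). Its neighbour Adam1b changed by 0.06 ± 0.19 (SE) with AzaC. The 5 male germ cell markers averaged 3.13 to 3.64 with AzaC and 3.37 to 4.36 with VPA, against 3.99 to 4.18 with PBS, and 0 of them passed. Of the 5, 2 were listed at 0 on some array with AzaC and 1 with VPA, and 0 with PBS. Most other ADAM genes were dim: only 7 of 25 had a mean above 7.04, and the 25 changes lay between -1.29 and 1.29 with AzaC and between -1.14 and 1.41 with VPA.

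Substrates of ADAM shedding were read as a list of 18 measured genes, of which 2 rose and 1 fell with AzaC in arrays labelled pregnant, against a background of 7.57%. Notch1 and Notch2, whose receptors are shed by Adam10 on activation, rose by 2.48 (limma adjusted p = 0.0159) and 1.60 (limma adjusted p = 0.0262), and Egf fell by 1.97 (limma adjusted p = 0.0230). With VPA 2 rose and 2 fell, against a background of 5.98%. The largest were Notch1 at 2.45 (limma adjusted p = 0.0199), Egf at -2.02 (limma adjusted p = 0.0250) and the adhesion protein Cdh1 at 1.60 (limma adjusted p = 0.0463). Of 24 measured matrix substrates of these enzymes, 1 rose with each drug. Over all genes 3.76% were called higher with AzaC and 3.64% with VPA, so the count is near that background. Acan, the proteoglycan that Adamts5 cuts, rose by 0.70 (limma adjusted p = 0.0302) with AzaC, and the proteoglycan Dcn rose by 1.37 (limma adjusted p = 0.0499) with VPA. The Acan group means of 7.02 with AzaC and 6.32 with PBS both lay under 7.04, the 40th percentile of all genes. A link between Acan and Adamts5 was not tested. Of 7 measured genes of the plasminogen activator system and 16 convertases and membrane serine proteases, some of which open MMP precursors, 0 passed with either drug. Their medians were 0.08 and 0.28 with AzaC and 0.41 and 0.32 with VPA, where those of all genes were 0.04 and 0.06. Without either pregnant PBS array 0 genes of these 4 lists passed with each drug, and the calls for all genes fell to 16 or 14 with AzaC and to 24 or 20 with VPA, out of 938 and 741. For the substrates of shedding 0 also passed without pregnant AzaC replicate 1 or replicate 3 with AzaC, and without pregnant VPA replicate 1 or replicate 2 with VPA, where Notch1 and Egf passed without replicate 3. The Acan call also ended without pregnant AzaC replicate 1 or replicate 3, and the Dcn call without any of the 3 pregnant VPA arrays. Without pregnant AzaC replicate 2, 1 of the 16 convertases and membrane serine proteases passed (Fap).

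The 4 inhibitors were all read at probe sets above the 40th percentile. None passed with a drug in the main fit, but the reading of Timp2 depended on the probe set. Timp2, which both inhibits MMPs and helps Mmp14 to activate Mmp2, read 11.57, 12.09 and 11.95 with AzaC and 12.51, 12.31 and 11.85 with VPA, against 11.69 and 10.72 with PBS in arrays labelled pregnant at the probe set with the highest mean. The AzaC arrays overlapped the controls, and the changes were 0.66 ± 0.38 (SE, limma adjusted p = 0.301) and 1.02 ± 0.38 (SE, limma adjusted p = 0.132). With 1 array left out they lay between 0.18 and 1.15 with AzaC and between 0.53 and 1.5 with VPA. The gene had 6 probe sets. At the third by mean signal it read 12.04, 11.58 and 12.68 with AzaC and 12.25, 12.11 and 11.92 with VPA, against 9.42 and 8.98 with PBS. In the fit of all probe sets this one was 2.90 ± 0.69 (SE, limma adjusted p = 0.0351) higher with AzaC and 2.89 ± 0.69 (SE, limma adjusted p = 0.0420) higher with VPA. At the second by mean signal the changes were 2.38 ± 0.55 (SE, limma adjusted p = 0.0336) and 2.22 ± 0.55 (SE, limma adjusted p = 0.0479). The remaining 3 probe sets did not pass, and all 6 fitted changes were above 0 with both drugs. The fit by gene thus gives no call for Timp2, while 2 of its probe sets passed.

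**Figure D5:**
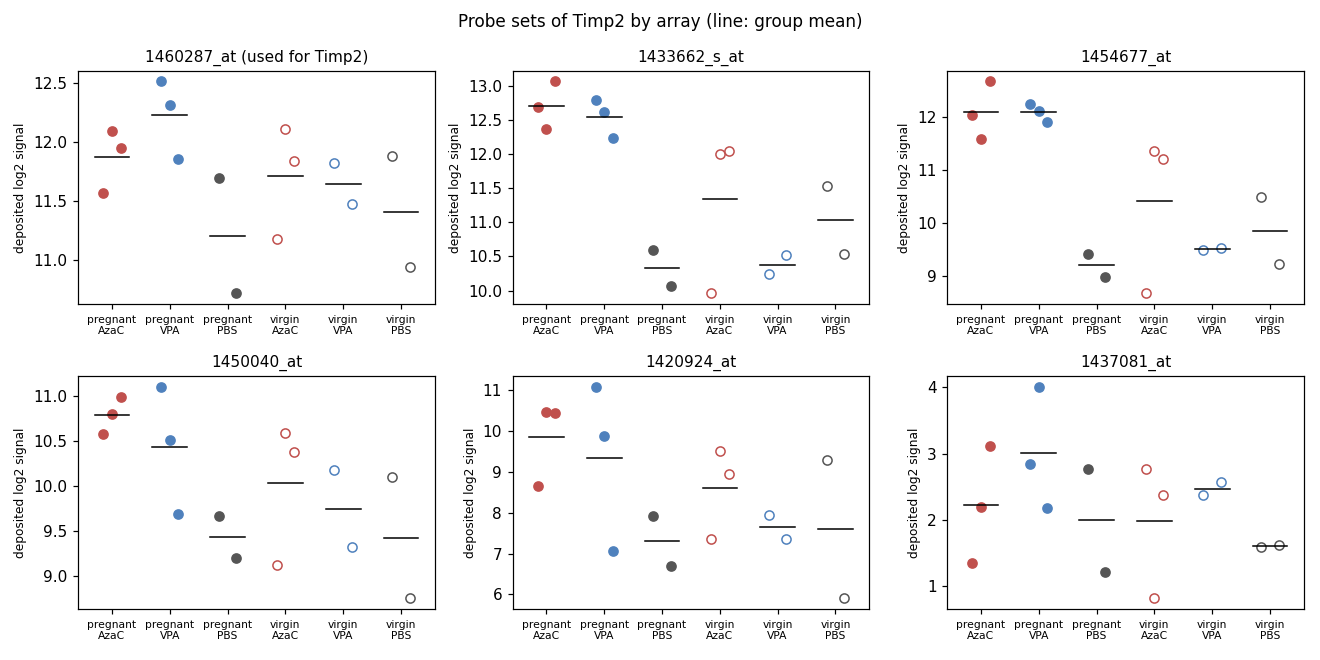
Deposited log2 signal at the 6 probe sets of Timp2 on each array, in order of their mean, with pregnant labels as filled and virgin labels as open circles, AzaC in red, VPA in blue and PBS in grey. At the third probe set the 6 pregnant drug arrays lie between 11.58 and 12.68, and the pregnant PBS arrays at 9.42 and 8.98, while at the probe set used for the gene the AzaC and PBS arrays overlap.

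Timp4 passed between the stage labels under VPA. It read 6.76, 6.63 and 6.58 on pregnant VPA arrays, against 8.03 and 7.41 on virgin VPA arrays, and was 1.06 ± 0.23 (SE) lower there (limma adjusted p = 0.0273). With drugs against PBS in arrays labelled pregnant it changed by -0.49 ± 0.23 (SE, limma adjusted p = 0.203) with AzaC and by -0.59 ± 0.23 (SE, limma adjusted p = 0.144) with VPA. The second Timp4 probe set changed by -0.20 ± 0.36 (SE, limma adjusted p = 0.782) between the labels under VPA, and by 0.37 ± 0.36 (SE, limma adjusted p = 0.602) with VPA against PBS in arrays labelled pregnant. Timp3, which is held in the matrix and also blocks Adam17, changed by 0.87 ± 0.50 (SE, limma adjusted p = 0.301) with AzaC and by 0.59 ± 0.50 (SE, limma adjusted p = 0.513) with VPA, and its 4 probe sets all gave positive values. Timp1, an inducible inhibitor, read 8.88, 8.92 and 8.38 with AzaC and 8.78, 9.25 and 9.71 with VPA, against 9.14 and 8.98. Its AzaC arrays lay below both controls (-0.33 ± 0.30 SE, limma adjusted p = 0.526), and its VPA arrays lay on both sides (0.19 ± 0.30 SE, limma adjusted p = 0.752).

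Between the stage labels, the VPA arrays gave 3 of 54 members past the threshold (Adamts5, Timp4 and Adamts15), against a background of 6.66%, of which 3.7% were higher and 2.96% lower. The groups did not overlap for 20 members, against 46% of all genes. All 3 calls ended without either virgin VPA array and without pregnant VPA replicate 2 or replicate 3, where 0 members passed, and without pregnant VPA replicate 1 only Adamts5 passed. Fewer of all genes passed in each of these settings as well, so the loss of calls was not confined to these members. The AzaC arrays gave 0 of 54, against a background of 1.23% (0.121% higher and 1.11% lower), with 7 members at an unadjusted p under 0.05 against 18.4% of all genes. The smallest p-values there belonged to Adamts7 (-1.55), Mmp8 (0.87) and Timp4 (-0.54), with limma adjusted p of 0.112, 0.149 and 0.199. The PBS arrays also gave 0 of 54, against a background of 0.00807%, with 7 at an unadjusted p under 0.05 against 4.2% of all genes. In the PBS arrays 17 members did not overlap between the labels, against 28.3% of all genes. Mmp9 (-0.97), Mmp23 (-0.83) and Mmp17 (1.85) led there, with limma adjusted p of 0.639, 0.932 and 0.932.

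In arrays labelled virgin, 0 of 54 members passed with either drug in limma, against backgrounds of 0% with AzaC and 0.00807% with VPA, and 8 and 5 members had an unadjusted p under 0.05, against 6.85% and 6.87% of all genes. With AzaC the smallest p-values belonged to dim genes. Mmp17, a membrane-anchored MMP, read 3.80, 4.25 and 4.42, against 1.32 and 1.93 with PBS (2.53 ± 0.51 SE, limma adjusted p = 0.349). Mmp8, the neutrophil collagenase, read 2.76, 1.99 and 2.47, against 3.87 and 4.11 with PBS (-1.58 ± 0.32 SE, limma adjusted p = 0.349). Adamts7 read 1.97, 2.62 and 2.19, against 0.26 and 0 with PBS (limma adjusted p = 0.512). With VPA they were Mmp23 (-0.96, limma adjusted p = 0.421), Mmp17 (1.99, limma adjusted p = 0.545) and Adam23, an ADAM without protease activity (-1.41, limma adjusted p = 0.592). When signals below 5 were raised to 5, the changes of Mmp17, Mmp8, Adamts7 and Adam23 were 0. As deposited, these groups did not overlap, but 18.3% of all genes with AzaC and 35.8% with VPA did not overlap either.

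AzaC and VPA were also set against each other. Of the 54 genes 0 passed in arrays labelled pregnant in limma and 1 had an unadjusted p under 0.05, against 3.78% of all genes, and 4 did not overlap, against 8.05%. The smallest p-values there belonged to Mmp11 (1.27), the leukocyte sheddase Adam8 (0.30) and Timp1 (-0.52), each with a limma adjusted p of 1. In arrays labelled virgin 0 passed, 5 had an unadjusted p under 0.05, against 6.56% of all genes, and 13 did not overlap, against 26.8%. The smallest p-values belonged to Mmp8 (-1.47, limma adjusted p = 0.432), Mmp23 (0.78, limma adjusted p = 0.646) and Adamts15 (0.76, limma adjusted p = 0.695). The background was 0% in both. The difference of a drug's change between stage labels likewise gave 0 of 54 for AzaC (background 0%, with 7 members and 12.8% of all genes at an unadjusted p under 0.05) and 0 of 54 for VPA (background 0.315%, with 10 members and 18.9% of all genes at an unadjusted p under 0.05). For AzaC the smallest p-values were those of Mmp8 (1.80), Mmp11 (2.39) and Mmp17 (-2.59), with limma adjusted p of 0.164, 0.198 and 0.202. For VPA they were those of Mmp23 (1.34, limma adjusted p = 0.0764), Adamts5 and Mmp9 (1.08, limma adjusted p = 0.103).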

How the data were processed

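The authors deposited 1 table of 22690 probe sets on 15 Affymetrix arrays, whose values were taken as log2 signals with 2 decimals, from 0 to 14.48. The base of the logarithm, background correction, summary and normalization are not given in the sources used here. Array medians lay between 7.22 and 7.47, so values were used as deposited. The platform annotation of 2016 gave a single symbol to 20380 probe sets. Probe sets with several symbols (691), with none (1555) and the 64 controls were left out, among them 1 of several symbols that include a member. The members had 83 probe sets, and 19 members had more than 1.

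All 15 arrays entered 1 linear model with a mean for each of 6 groups, using limma 3.58.1 (lmFit, eBayes) under R 4.3.3 (9 residual and 2.31 prior degrees of freedom). Tests were two-sided over 11 comparisons. No filter was applied. In data simulated for AzaC against PBS with pregnant label over 12393 genes, 49 of 100 genes changed by 1 and 96 of 100 changed by 2 were recovered. The changed genes were drawn from brighter genes only, so these counts give no recovery rate for the dim members. Named genes were all members past the threshold, or the 3 smallest p-values where fewer passed, plus 12 fixed genes, and up to 3 passing genes of each list. Other genes given with values, Adam9, Adam1b and those of the chromosome 9 run among them, were chosen after their values were seen. Members and lists were chosen with earlier results of these data known. Alternatives are given in the closing section. Whether replicate numbers pair arrays was not settled. Correlations of deviations between same-numbered arrays ran from -0.424 to 0.655, and arrays of different number were not read beside them.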

Additional observations from a re-analysis of the deposited data

How the results depend on the processing

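The number of members past the threshold depended on few arrays. With AzaC against PBS in arrays labelled pregnant it was 5, and between 0 and 3 when each array was left out in turn. It was 2 without genes under the 40th percentile (Adam9 and Adamts5) and 3 with values under 5 set to 5. It was 0 with only these arrays fitted (0 of all genes) and 2 (Adamts5 and Mmp11) with the replicate number as a block. With VPA it was 3, between 0 and 2 when an array was left out, and 1 (Mmp10) when only these arrays were fitted. Under VPA between stage labels it was 3, between 0 and 1 with an array left out, 5 with trend and robust settings, 0 with only these arrays and 0 with the replicate block. The replicate block gave 2 with VPA against PBS, and 0 in the other comparisons, as without it. Under AzaC between stage labels it was 0, and between 0 and 1 with an array left out (Adamts5 without pregnant AzaC replicate 2). The difference between the VPA changes gave 0, and 1 (Adamts5) without genes under the 40th percentile and with trend and robust settings. In the other 6 comparisons the count was 0 in every setting run. Where leaving out an array left 1 array in a group, that array was assumed to vary as the other groups do.

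The groups behind each called change did not overlap, so leaving out an array could not turn its sign. Other settings reused the same arrays, so a kept sign is no separate evidence of direction. The 11 called changes kept their sign in all 147 values under other settings, and 75 of those did not pass. Adamts5 ranged from -4.08 to -2.93 with AzaC and from -4.35 to -3.31 with VPA when an array was left out. Mmp9 lost its call with the mean of all probe sets (0.27 with AzaC and 0.49 with VPA), as did Timp4 between labels under VPA (-0.63). Of the other named changes, only that of Timp1 with VPA turned, to -0.05 without pregnant VPA replicate 3 (its range with an array left out was -0.05 to 0.42), and Timp2 with VPA passed (1.00, limma adjusted p = 0.0465) with the Gapdh 3' minus 5' difference as a covariate. With values under 5 set to 5, every named change of Mmp17, Mmp8, Adamts7 and Adam23, the differences between stage labels and between drugs included, was 0, as all their values lie under that floor. With an array left out, Mmp11 with VPA lay between 0.23 and 1.09, Timp3 with VPA between 0.29 and 0.86, and Mmp2 with VPA between 0.3 and 0.76. The cause of the other changes was not tested. Signal over background was not given, which limits what can be read from the 37 dim genes.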

Other observations

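On virgin AzaC replicate 1 some members were lower than on the other arrays of the group, and others, such as Adam8 and Adam15, were close to them. It read 9.80 for Adam9, against 10.82 and 10.67 on replicates 2 and 3. For Adam17 it read 8.56, against 9.13 and 9.19. At the third Timp2 probe set by mean signal it read 8.67, against 11.37 and 11.21. On replicates 2 and 3 these values lay inside or near the range of the arrays labelled pregnant with AzaC, where Adam9 read 10.50 to 10.91, Adam17 8.99 to 9.61 and that Timp2 probe set 11.58 to 12.68. These values were picked after they were seen and were not tested.

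Virgin PBS replicates differed as well. Mmp2 read 9.95 on replicate 1 and 8.65 on replicate 2, and Timp3 read 9.99 and 8.37. The difference between the 3' and 5' Gapdh control probe sets, a sign of RNA quality, was -0.06 on replicate 1 and 1.23 on replicate 2, the highest of all 15 arrays. Its part in these values was not tested beyond the covariate setting above.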
